A study of Mus musculus with 4 samples.

Results

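The 40 genes described here encode enzymes and regulators of fatty acid and sphingolipid metabolism. Their probes were found by gene symbol, current or older, on the platform annotation of the array. The list of genes itself was drawn up with earlier results of these data known. Of the 45281 probes on the array, 75 carried the symbol of 1 of the 40 genes. After the detection filter 61 of these probes were kept, and 39 of the 40 genes were measured, out of 10858 genes tested. The remaining gene, Acaca, had 1 probe, which was not well above background on any of the 4 arrays and has no level here.

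The samples were mouse sciatic nerve at postnatal day 60, on a mixed FVB/C57BL/6 background, hybridised to Illumina MouseWG-6 beadchips. There were 2 pools of LKB1-SCKO nerves and 2 pools of control nerves, each pool holding RNA of 3 nerves from 3 different mice, with 6 mice per genotype. LKB1-SCKO is the labels' name for a Schwann cell knockout of LKB1, sampled by the title before axons degenerate, and the controls carried floxed LKB1 without expressing Cre recombinase. The promoter that drives Cre is not given in the sources used here. Each nerve holds myelinating Schwann cells together with axons, fibroblasts, perineurium, vessels, immune cells and attached fat or muscle, so a lower value in whole nerve cannot tell fewer cells of a type from less RNA per cell. The small number of arrays, 2 per genotype, limits the precision.

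LKB1, encoded by Stk11, is a kinase that activates the energy sensor AMPK. AMPK phosphorylates and inhibits acetyl-CoA carboxylase, the enzyme that commits acetyl-CoA to fatty acid synthesis. Schwann cells make large amounts of fatty acids while they build myelin. They elongate and desaturate them, and attach very long chains to sphingosine to form ceramide. Ceramide is turned into galactosylceramide and its sulphated form, sulfatide, which are characteristic lipids of myelin, or into sphingomyelin and other glycolipids. Lysosomal hydrolases and their activator proteins break these lipids down again, and inherited loss of several of them causes demyelinating storage disease. Adipocytes, which surround peripheral nerve in the epineurium, use the same fatty acid enzymes to make triglyceride.

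Values are log2 of the background-corrected, quantile-normalised signal intensity, given for pool 1 and then pool 2 of each genotype. Fold changes are differences of log2 values, LKB1-SCKO minus control, with the standard error (SE) of the fit. A gene was called when its p-value from limma, adjusted by Benjamini-Hochberg over all 10858 genes, was under 0.05. In all, 412 genes or 3.79% were called, 267 of them (2.46%) higher in LKB1-SCKO nerve and 145 (1.34%) lower. The median log2 fold change over all genes tested was 0.01. Stk11 itself was at 8.93 and 9.01 in LKB1-SCKO nerve, against 9.70 and 9.83 in control nerve. That is a log2 fold change of -0.80 (SE 0.13, adjusted p = 0.0448), and the call was lost when any 1 pool was left out, with adjusted p-values between 0.0788 and 0.217. Whether the Stk11 probe lies in the deleted part of the gene is not given in the sources used here.

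No member of the lipid gene group was called, against 3.79% of all genes. By the same limma fit, 12 of the 39 measured members (30.8%) had an unadjusted p under 0.05, against 22.4% of all genes. Of these 12 members, 4 were higher in LKB1-SCKO nerve and 8 were lower, where 12% of all genes were higher and 10.4% lower at that threshold. In 27 members (69.2%) both LKB1-SCKO pools lay on the same side of both control pools, 12 above and 15 below, against 55.1% of all genes. The median log2 fold change of the members was -0.01, close to that of all genes, and 20 of 39 members were below 0. For 29 of 39 members the 95% interval stayed within 2-fold in either direction, a smaller share than the 8909 of the 10858 genes. An estimate of 2-fold or more was reached by 3 of 39 members, against 464 of the 10858 genes. Thrsp and Agpat2 differed by 2-fold or more in their estimate, both higher in LKB1-SCKO nerve. The estimate of Me1 was also over 2-fold, but its probe was not well above background in control 1, and without that pool the estimate was on the other side of 0. A p-value that missed the threshold in this design does not show that a gene was unchanged.

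Estimates were read by role. Of the 17 measured genes for fatty acid synthesis, elongation, desaturation and lipogenic regulation, 9 were above 0, Me1 among them, and 8 below. Their median log2 fold change was 0.07. Of the 16 genes for sphingolipid synthesis and breakdown, 5 were above 0 and 11 below, with a median of -0.11. Within the sphingolipid genes, those for synthesis had a median of -0.36, and those for breakdown 0.03, which was -0.073 with median scaling of the arrays. The 6 genes for glycerolipid synthesis had the highest group median, 0.41, which was 0.20 without LKB1-SCKO 1, 0.28 without control 2, 0.62 without LKB1-SCKO 2 and 0.61 without control 1. For comparison, 48.4% of all genes tested were below 0. These differences between groups of members were not tested.

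**Figure D1:**
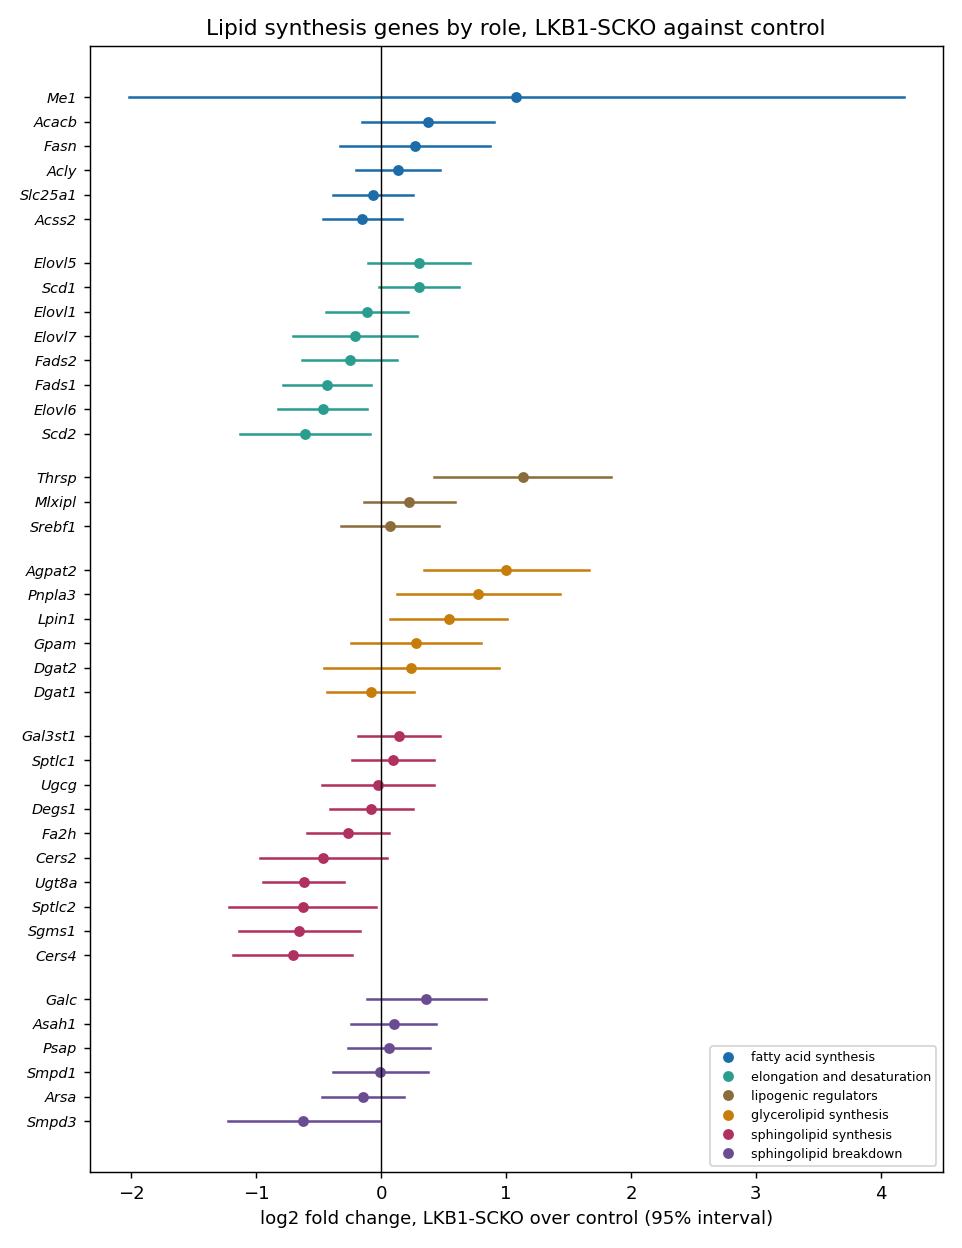
Log2 fold change of each of the 39 measured members, LKB1-SCKO over control (x axis, points, with 95% intervals as lines), grouped and coloured by role. Intervals that stay left of 0 belong to Elovl6, Fads1, Scd2, Ugt8a, Sptlc2, Sgms1, Cers4 and Smpd3, and those that stay right of 0 to Thrsp, Agpat2, Pnpla3 and Lpin1. Me1 has the widest interval, between -2.02 and 4.18.

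In the sphingolipid synthesis group 8 of 10 genes had lower values in LKB1-SCKO than in control nerve, and none was called. By the limma fit 4 of the 10 (40%), all lower, had an unadjusted p under 0.05. Of all genes 22.4% did so in either direction, 10.4% being lower. The mean log2 value over the 10 genes was 11.23 and 11.42 in LKB1-SCKO nerve, against 11.62 and 11.67 in control nerve. Both LKB1-SCKO pools were thus below both control pools, and LKB1-SCKO 1 was the lowest. Without LKB1-SCKO 1 the group median was -0.21, and without any other single pool it lay between -0.39 and -0.35.

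Ugt8a encodes ceramide galactosyltransferase, which makes galactosylceramide, and it had the smallest p-value of all members. It was at 13.59 and 13.71 in LKB1-SCKO nerve, against 14.27 and 14.27 in control nerve. The control pools were nearly identical and the LKB1-SCKO pools lay well below them, with no overlap. The log2 fold change was -0.62 (SE 0.13, 95% interval -0.95 to -0.29), or 1.54-fold lower in LKB1-SCKO nerve. Its unadjusted p was 0.00418 and its adjusted p 0.0709. Ugt8a was the member that other processing moved over the threshold: adjusted p was 0.0203 without background correction and 0.0373 with a larger offset, in a range over all 14 other settings of 0.0203 to 0.293. A dimmer, second probe of Ugt8a was at 6.13 and 5.21 in LKB1-SCKO nerve, against 7.05 and 6.89 in control nerve, but was detected in only 1 of the 2 LKB1-SCKO pools, so the lower value of 5.21 was not well above background and no size is read from it.

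Among the ceramide synthases, Cers4, which joins long acyl chains to sphingoid bases, was at 8.38 and 8.83 in LKB1-SCKO nerve, against 9.36 and 9.26 in control nerve. The pools did not overlap, and LKB1-SCKO 1 was the lower one. The log2 fold change was -0.71 (SE 0.19, unadjusted p = 0.0121, adjusted p = 0.116), the largest decrease in estimate among the members. Its 2 other kept probes gave -0.22 and -0.79. Cers2, the ceramide synthase for very long chains and the main one of myelin, was at 13.45 and 13.97 in LKB1-SCKO nerve, against 14.16 and 14.18 in control nerve. LKB1-SCKO 1 stood apart from LKB1-SCKO 2, which was close to the controls, and the log2 fold change of -0.46 had an adjusted p of 0.256. All 3 kept Cers2 probes were below 0, the other 2 at -0.38 and -0.72.

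Sgms1 encodes a sphingomyelin synthase of the Golgi. It was at 10.25 and 10.43 in LKB1-SCKO nerve, against 10.77 and 11.21 in control nerve, a log2 fold change of -0.65 (SE 0.19, adjusted p = 0.140), and its other probe gave -0.35. Sptlc2, a catalytic subunit of serine palmitoyltransferase, which starts sphingolipid synthesis, was at 6.11 and 6.75 in LKB1-SCKO nerve, against 7.07 and 7.04 in control nerve. For both genes the pools did not overlap. The Sptlc2 log2 fold change of -0.63 (SE 0.23, adjusted p = 0.205) depended on LKB1-SCKO 1, since without that pool it was -0.31. Sptlc1, the partner subunit, was on the other side of 0 with a log2 fold change of 0.09.

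Fa2h, the fatty acid hydroxylase that supplies the hydroxylated chains of myelin galactolipids, was at 13.80 and 13.91 in LKB1-SCKO nerve, against 14.13 and 14.11 in control nerve. The pools did not overlap, but the log2 fold change of -0.26 had an adjusted p of 0.298. Gal3st1, the sulfotransferase that turns galactosylceramide into sulfatide, had a log2 fold change of 0.14, against -0.62 for Ugt8a one step earlier in the pathway. Degs1, the desaturase that completes ceramide, was at -0.08, and Ugcg, which makes glucosylceramide instead of galactosylceramide, at -0.03. The estimates of Sptlc1, Degs1, Ugcg and Gal3st1 lay between -0.08 and 0.14 and those of the other 6 genes between -0.71 and -0.26, and no difference between the genes was tested.

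Of 15 markers of myelinating Schwann cells listed, 12 were measured, 8 of them below 0 and 1 called, with a median log2 fold change of -0.17. By the limma fit 5 of the 12 (41.7%) were lower at an unadjusted p under 0.05 and 0 higher, against 22.4% of all genes in either direction. In 9 markers (75%) the pools did not overlap, 6 lower and 3 higher, against 55.1% of all genes. Their mean log2 value was 13.06 and 13.14 in LKB1-SCKO nerve, against 13.33 and 13.32 in control nerve, and their summed intensity was 191484 and 195573 against 224076 and 220804. Drp2, a dystrophin-related protein of the outer myelin membrane, was the marker called, at 12.88 and 13.17 in LKB1-SCKO nerve, against 13.92 and 13.94 in control nerve. Its log2 fold change was -0.91 (SE 0.15, adjusted p = 0.0457), and it was called under 8 of 14 other settings, with adjusted p-values between 0.0442 and 0.192 when 1 pool was left out. The part of these markers in the sphingolipid result was not tested. Skeletal muscle markers were low in LKB1-SCKO 1: their mean over 14 genes was 9.81 in LKB1-SCKO 1 and 11.93 in LKB1-SCKO 2, against 11.70 and 11.51 in control nerve. The largest difference was in Myh4, at 7.01 and 8.99 in LKB1-SCKO nerve, against 9.16 and 9.31 in control nerve. Atp2a1 followed, at 11.01 and 13.29 in LKB1-SCKO nerve, against 13.33 and 13.03 in control nerve. None of the 14 was called, and the median log2 fold change of the markers was -0.74, but 0.30 without LKB1-SCKO 1. Without LKB1-SCKO 2, which leaves LKB1-SCKO 1 alone against the 2 control pools, the median of the muscle markers was -1.77. Their part in the low values of LKB1-SCKO 1 was not tested.

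**Figure D2:**
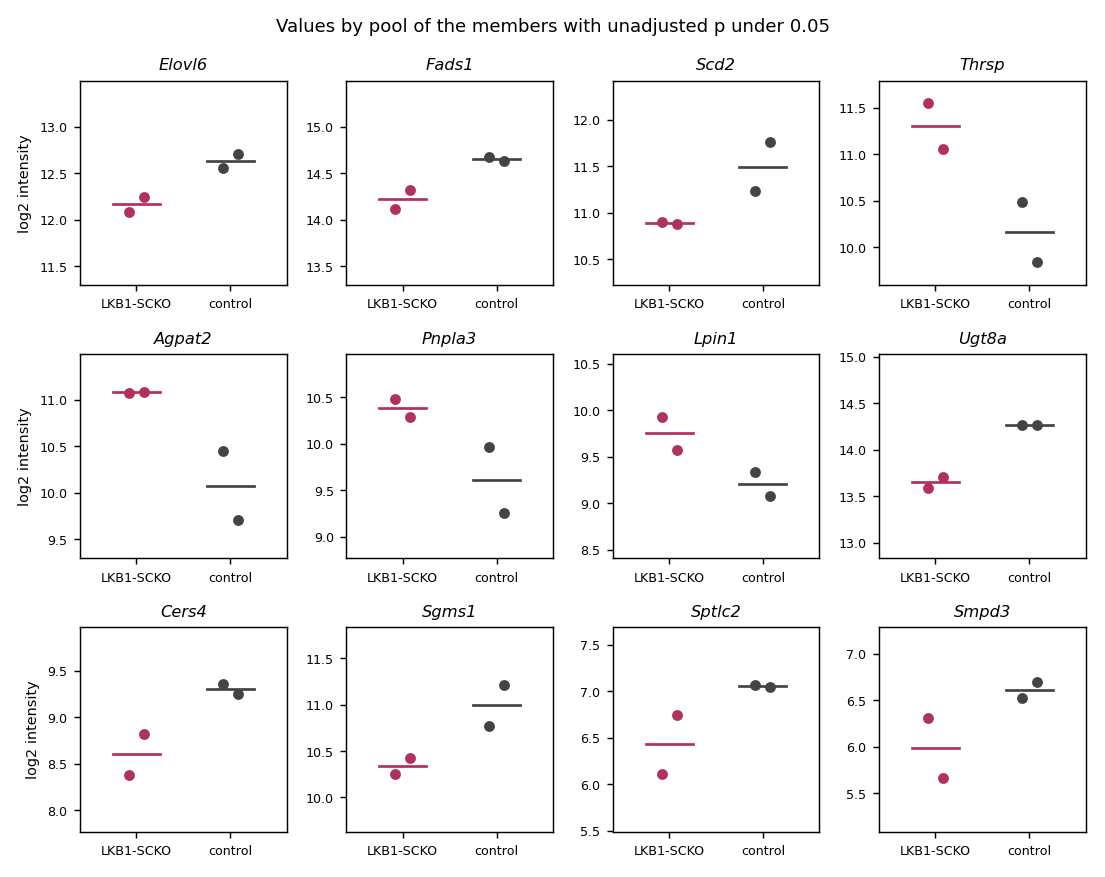
Normalised log2 intensity (y axis, each panel spanning the same log2 range) of the 12 members with an unadjusted p under 0.05, by genotype. Points are single pools and lines their mean (n = 2 pools per genotype). In every panel the LKB1-SCKO points lie on 1 side of the control points, and the control pools of Thrsp, Agpat2, Pnpla3 and Scd2 lie further apart than those of Ugt8a.

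For sphingolipid breakdown, 3 of 6 genes were above 0 and 3 below, and none was called. Smpd3, the neutral sphingomyelinase, was at 6.31 and 5.67 in LKB1-SCKO nerve, against 6.52 and 6.70 in control nerve, a log2 fold change of -0.62 (SE 0.24, adjusted p = 0.215). Both LKB1-SCKO pools were below the controls, LKB1-SCKO 2 more so, and without LKB1-SCKO 2 the value was -0.30. Galc, the galactosylceramidase that is lost in Krabbe disease, was at 7.51 and 7.18 in LKB1-SCKO nerve, against 7.14 and 6.82 in control nerve. LKB1-SCKO 2 was only just above control 1, and the log2 fold change of 0.36 had an adjusted p of 0.323. Galc and Ugt8a, the enzymes that degrade and make galactosylceramide, thus had estimates of opposite sign, and neither was called.

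Arsa, the sulfatase that removes the sulphate of sulfatide and is lost in metachromatic leukodystrophy, was at 9.15 and 9.17 in LKB1-SCKO nerve, against 9.25 and 9.37 in control nerve, a log2 fold change of -0.14. Asah1, the acid ceramidase, was at 13.30 and 13.45 in LKB1-SCKO nerve, against 13.32 and 13.23 in control nerve. Its pools overlapped, with a log2 fold change of 0.10, and its second probe gave -0.25. Psap, the precursor of the saposins that present sphingolipids to these hydrolases, was at 0.06, and Smpd1, the acid sphingomyelinase, at -0.01. For Psap the 95% interval was -0.26 to 0.39 and for Smpd1 -0.38 to 0.37.

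In fatty acid synthesis none of the 6 measured genes had an unadjusted p under 0.05. Acacb, the acetyl-CoA carboxylase attached to mitochondria and a direct target of AMPK, was at 10.16 and 10.01 in LKB1-SCKO nerve, against 9.97 and 9.45 in control nerve. The LKB1-SCKO pools were both above the controls, but control 1 was close to them, and the log2 fold change of 0.38 (SE 0.21) had an adjusted p of 0.351. It was 0.12 without control 2 and 0.64 without control 1, with adjusted p-values of 0.858 and 0.232, the highest and lowest over the fits that leave out 1 pool. Fasn, the fatty acid synthase, was at 7.003 and 6.36 in LKB1-SCKO nerve, against 6.48 and 6.33 in control nerve, a log2 fold change of 0.27 (adjusted p = 0.538). The Fasn pools overlapped, LKB1-SCKO 1 being the only high one, and without it the value was -0.05.

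Me1 encodes the cytosolic malic enzyme, a source of the NADPH used by fatty acid synthase. It was at 8.24 and 7.23 in LKB1-SCKO nerve, against 4.73 and 8.57 in control nerve, and its probe was not well above background in control 1. Me1 thus passed the detection filter through the LKB1-SCKO pools, and the control pools spanned both LKB1-SCKO values. The log2 fold change of 1.08 had an SE of 1.23 and an adjusted p of 0.645. Without control 1 it was -0.84. The mean over the 6 genes of this group was moved by Me1, so their median of 0.20 is given instead. It was 0.06 without LKB1-SCKO 1, 0.005 without control 1 and 0.10 with median scaling. This median still includes Me1. With the stricter detection filter, which Me1 did not pass, the median of the other 5 genes was 0.14, with 3 above 0.

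The enzymes that supply cytosolic acetyl-CoA differed little. Acss2, which makes it from acetate, was at 11.46 and 11.45 in LKB1-SCKO nerve, against 11.63 and 11.58 in control nerve, a log2 fold change of -0.15 (adjusted p = 0.518). Acly, which makes it from citrate, had a log2 fold change of 0.14 with a 95% interval of -0.20 to 0.47. Slc25a1, the carrier that exports citrate from mitochondria, was at -0.06 with an interval of -0.38 to 0.26. Each of these 3 intervals lies within 2-fold in either direction.

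Among the elongases and desaturases 6 of 8 genes were lower in LKB1-SCKO nerve and 2 higher. At an unadjusted p under 0.05 in the limma fit 3 (37.5%) were lower and 0 higher, against 22.4% of all genes in either direction. Scd2, a stearoyl-CoA desaturase of the nervous system, was at 10.90 and 10.88 in LKB1-SCKO nerve, against 11.23 and 11.76 in control nerve. The pools did not overlap, control 2 was the highest, and the log2 fold change was -0.61 (SE 0.21, adjusted p = 0.176). Without control 2 it was -0.34. Scd1, the desaturase best known from liver and fat, had its pools on the other side, at 14.27 and 14.25 in LKB1-SCKO nerve, against 13.997 and 13.92 in control nerve. Its log2 fold change of 0.30 had an adjusted p of 0.243. The 2 desaturases of the same reaction thus had estimates of opposite sign, a difference that was not tested, and neither was called.

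Elovl6, which elongates palmitate to stearate, was at 12.09 and 12.24 in LKB1-SCKO nerve, against 12.56 and 12.71 in control nerve, a log2 fold change of -0.47 (SE 0.14, adjusted p = 0.146). Its second probe gave -0.58. Fads1, a desaturase in the synthesis of polyunsaturated fatty acids, was at 14.12 and 14.32 in LKB1-SCKO nerve, against 14.67 and 14.63 in control nerve, a log2 fold change of -0.44 (SE 0.14, adjusted p = 0.160). In neither gene did the pools overlap. Elovl5, an elongase of polyunsaturated fatty acids, was at 12.63 and 12.31 in LKB1-SCKO nerve, against 12.21 and 12.13 in control nerve, a log2 fold change of 0.30 with an adjusted p of 0.334.

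Fads2, the desaturase that works upstream of Fads1, had a log2 fold change of -0.25, with -0.59 from its second probe. Elovl1, an elongase for the very long chains of sphingolipids, was at -0.11, and its 3 other probes gave -0.32, -0.11 and -0.43. Elovl7 was at -0.21. All Elovl1 and Fads2 probes pointed the same way, with no call for either gene.

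**Figure D3:**
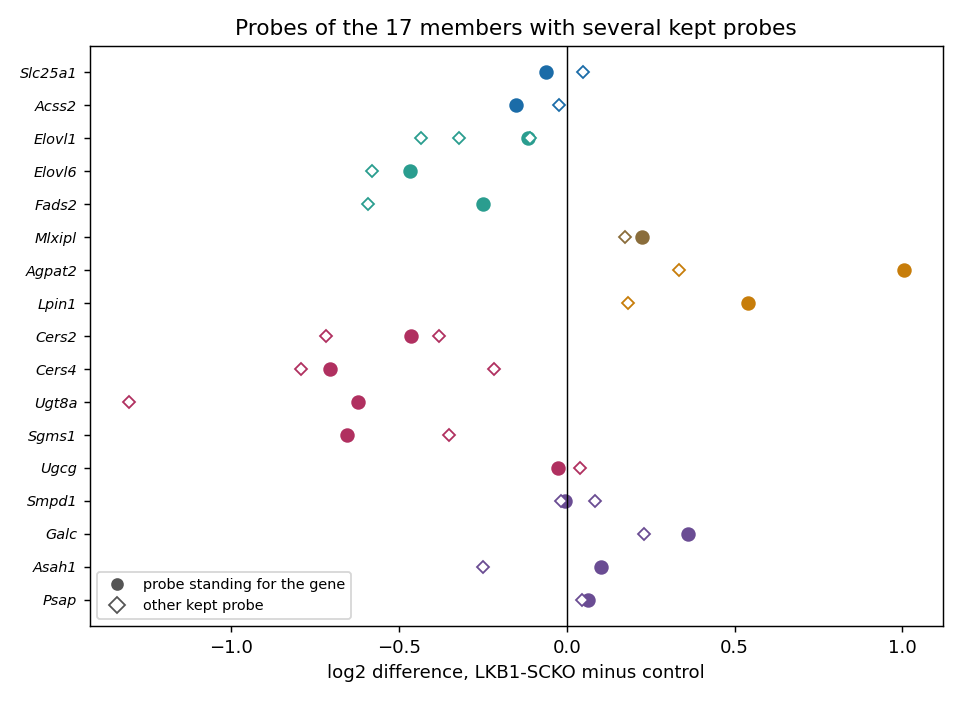
Log2 difference, LKB1-SCKO minus control (x axis), of each kept probe of the 17 members with several kept probes. Filled circles are the probe that stands for the gene, the brightest one, open diamonds the 22 other probes, and colours mark the roles as in the plot of fold changes by role. Of the 22 other probes 18 have the sign of the first probe. Opposite signs occur in Slc25a1, Ugcg, Smpd1 and Asah1. The other probes of Acss2 and Ugt8a include pools not well above background.

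The lipogenic regulators were all 3 above 0 as reported, and 2 of 3 with median scaling. Thrsp, which had the largest log2 fold change of all members, encodes a thyroid hormone responsive protein that promotes lipogenesis in liver and fat. It was at 11.54 and 11.05 in LKB1-SCKO nerve, against 10.49 and 9.84 in control nerve. The pools did not overlap, although the control pools lay further apart than the closest pools of the genotypes. The log2 fold change was 1.13 (SE 0.28, 95% interval 0.42 to 1.84), or 2.19-fold, with an unadjusted p of 0.0088 and an adjusted p of 0.101. Mlxipl, the carbohydrate response factor ChREBP, was at 8.77 and 8.57 in LKB1-SCKO nerve, against 8.51 and 8.38 in control nerve, a log2 fold change of 0.23 (adjusted p = 0.412). Srebf1, the sterol regulatory factor that drives fatty acid synthesis genes, was at 7.97 and 7.74 in LKB1-SCKO nerve, against 7.87 and 7.69 in control nerve. Its pools overlapped, and the log2 fold change of 0.07 (95% interval -0.32 to 0.46) changed sign with LKB1-SCKO 1 or control 2 left out and with median scaling.

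For glycerolipid synthesis, 5 of 6 genes were above 0. By the limma fit 3 of the 6 (50%), all higher, had an unadjusted p under 0.05, against 22.4% of all genes in either direction. Agpat2 acylates lysophosphatidic acid to phosphatidic acid, and its loss causes lipodystrophy. It was at 11.08 and 11.08 in LKB1-SCKO nerve, against 10.45 and 9.70 in control nerve, a log2 fold change of 1.00 (SE 0.26, adjusted p = 0.109), or 2.01-fold. The LKB1-SCKO pools were alike and the control pools were not, and its second probe gave 0.33. Pnpla3, a lipid droplet protein with lipase activity, was at 10.48 and 10.29 in LKB1-SCKO nerve, against 9.96 and 9.25 in control nerve, a log2 fold change of 0.78 (SE 0.26, adjusted p = 0.172).

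Lpin1, the phosphatidic acid phosphatase lipin, was at 9.93 and 9.57 in LKB1-SCKO nerve, against 9.34 and 9.08 in control nerve, a log2 fold change of 0.54 (SE 0.19, adjusted p = 0.181). Gpam, which acylates glycerol phosphate at the start of the pathway, was at 6.35 and 5.88 in LKB1-SCKO nerve, against 5.96 and 5.71 in control nerve, a log2 fold change of 0.28 with overlapping pools. Dgat2 and Dgat1, the acyltransferases of the last step to triglyceride, were at 0.24 and -0.08, both with overlapping pools. No step of the pathway was tested against another.

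As a mean, adipocyte markers were lowest in control 2, as were these genes, but control 1 was above LKB1-SCKO 2. By the probe that stands for the gene, both LKB1-SCKO pools were above both control pools in Thrsp, Agpat2, Pnpla3 and Lpin1. The second kept probes of Agpat2 and Lpin1 had overlapping pools. That of Agpat2 was at 9.86 and 9.99 in LKB1-SCKO nerve, against 9.89 and 9.29 in control nerve. That of Lpin1 was at 9.29 and 8.92 in LKB1-SCKO nerve, against 8.97 and 8.87 in control nerve, a log2 difference of 0.18. Of 17 adipocyte markers listed, 13 were measured, 11 of them above 0 and none called, with a median log2 fold change of 0.52. In 3 of the 13 (23.1%), namely Plin1, Lipe and Pparg, both LKB1-SCKO pools were likewise above both control pools. In no marker were both below, and the pools did not overlap in 55.1% of all genes. The mean log2 value of the 13 markers was 9.76 and 9.30 in LKB1-SCKO nerve, against 9.63 and 8.49 in control nerve. Control 2 was thus low and control 1 was not. Their summed intensity was 38506 and 27378 in LKB1-SCKO nerve, against 34160 and 16766 in control nerve. Probes of Fabp4 and Retn, also on the list, did not pass the detection filter. Adipoq, the adipocyte hormone adiponectin, was at 12.66 and 12.20 in LKB1-SCKO nerve, against 12.28 and 11.07 in control nerve. Car3, an abundant carbonic anhydrase of fat and muscle, was at 12.50 and 11.33 in LKB1-SCKO nerve, against 11.85 and 9.68 in control nerve.

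Without control 2 the adipocyte median was -0.10, with 5 of 13 markers above 0. Under the same omission Thrsp was at 0.81, Agpat2 at 0.63, Pnpla3 at 0.43 and Lpin1 at 0.41, with adjusted p-values of 0.294, 0.270, 0.464 and 0.530. Over the 4 fits that leave out 1 pool, the adjusted p of Thrsp lay between 0.0814 and 0.294, that of Agpat2 between 0.0542 and 0.270, that of Pnpla3 between 0.0940 and 0.464 and that of Lpin1 between 0.122 and 0.530. Without control 2 all 4 estimates were smaller than with all pools. Over the 4 fits the largest estimates were 1.45 for Thrsp, 1.36 for Agpat2, 1.13 for Pnpla3 and 0.72 for Lpin1. The part of adipocytes in these values was not tested.

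**Figure D4:**
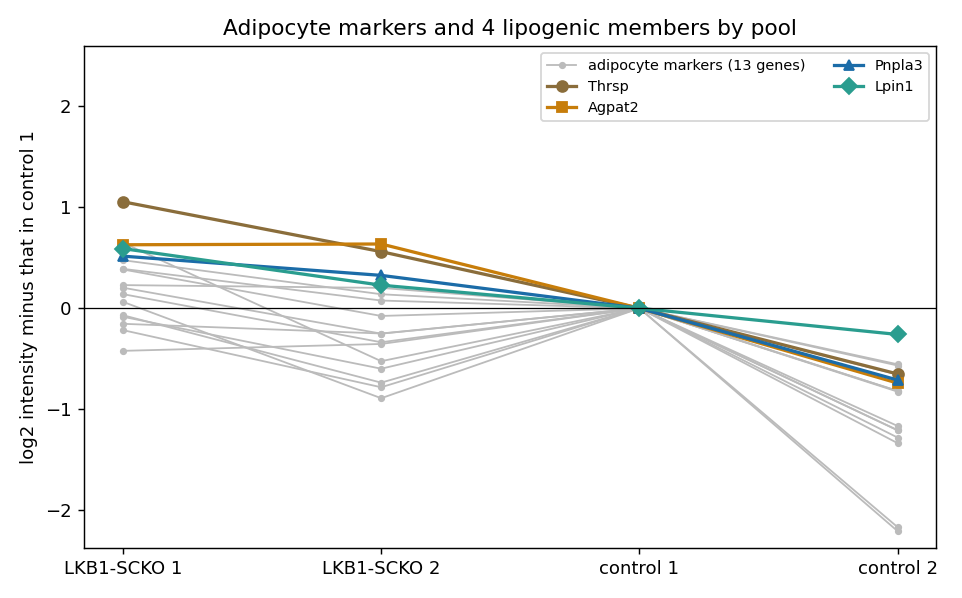
Log2 intensity minus that in control 1 (y axis) in each of the 4 pools (x axis) for 13 adipocyte markers in grey and for Thrsp, Agpat2, Pnpla3 and Lpin1 in colour. Lines join the values of 1 gene and carry no order. In control 2 all 17 genes lie below 0, and in LKB1-SCKO 2 the 4 lipid genes lie above 0 while most adipocyte markers lie below it.

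The promoters of Ugt8a, Thrsp and Agpat2, the members with the 3 smallest p-values, are shown because sterol, carbohydrate and Krox20 (EGR) response elements are the motifs usually discussed for lipogenic and myelin genes. The sequences are from RefSeq (mouse assembly GRCm38.p6), run 5′ to 3′ on the gene's strand, and cover 250 bases before to 50 bases after the annotated start. They lie at chr3:125938603-125938902, chr7:97417501-97417800 and chr2:26604368-26604667, all on the minus strand. Capitals mark matches to CCAAT on either strand, and all other bases are in lower case.
Ugt8a: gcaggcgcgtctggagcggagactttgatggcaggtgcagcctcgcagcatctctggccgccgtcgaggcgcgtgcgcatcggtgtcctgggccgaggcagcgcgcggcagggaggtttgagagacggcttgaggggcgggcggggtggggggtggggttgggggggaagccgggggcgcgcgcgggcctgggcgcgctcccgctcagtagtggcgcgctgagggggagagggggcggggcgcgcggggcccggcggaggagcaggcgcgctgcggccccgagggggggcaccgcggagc
Thrsp: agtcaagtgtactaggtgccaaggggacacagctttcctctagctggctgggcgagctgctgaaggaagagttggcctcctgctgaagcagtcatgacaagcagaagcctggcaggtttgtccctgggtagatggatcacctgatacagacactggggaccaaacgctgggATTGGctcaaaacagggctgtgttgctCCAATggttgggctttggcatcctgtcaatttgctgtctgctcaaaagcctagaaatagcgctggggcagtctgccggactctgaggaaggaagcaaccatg
Agpat2: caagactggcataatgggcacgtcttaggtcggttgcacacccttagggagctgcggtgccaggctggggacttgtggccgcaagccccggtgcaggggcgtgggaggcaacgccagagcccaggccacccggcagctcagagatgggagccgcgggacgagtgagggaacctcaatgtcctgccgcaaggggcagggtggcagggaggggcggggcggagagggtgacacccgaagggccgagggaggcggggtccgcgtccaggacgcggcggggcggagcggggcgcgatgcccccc

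Each window was searched on both strands for the sterol element TCACNCCAC, the E-box CACGTG, the CCAAT box and the EGR site GCGNGGGCG. The Thrsp window held 2 CCAAT matches, the first beginning at position -79 from the start, on the opposite strand, and the second at position -52, on the gene's strand. The Ugt8a and Agpat2 windows held no match to any of the 4 motifs, which says only that these letters are not in these windows. Of all 32851 promoter windows, 37.4% held a CCAAT match, 7.15% an E-box, 5.55% an EGR match and 1.24% a sterol element. RefSeq windows were matched for 32 members, 45 windows in all, of which 22 held CCAAT, 6 an E-box, 7 an EGR match and 1, of Mlxipl, a sterol element. A match in these windows is a description of the letters and not a binding site.

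Further genes of the same pathways were read from lists that do not overlap with the 40 genes. Of 24 other fatty acid genes, 17 were measured, 1 was higher, 1 was lower and 15 were not called, with a median of -0.08. Elovl4, an elongase of very long chain fatty acids known from retina, skin and brain, fell to 8.16 and 8.37 in LKB1-SCKO nerve, against 9.93 and 10.35 in control nerve. Its log2 fold change was -1.88 (SE 0.19, adjusted p = 0.0127), or 3.68-fold lower, and it was called under all 14 other settings, with adjusted p-values of at most 0.0406 when 1 pool was left out. Acsl5, an acyl-CoA synthetase that activates long chain fatty acids, was at 12.03 and 11.92 in LKB1-SCKO nerve, against 11.09 and 11.11 in control nerve. It rose by a log2 fold change of 0.88 (SE 0.13, adjusted p = 0.0335), a call lost without any 1 pool, with adjusted p-values of 0.0574 to 0.163. It was called under 6 of 14 other settings. The elongases among the 40 genes had estimates between -0.47 and 0.30.

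Of 17 other glycerolipid genes, 14 were measured, 1 was higher and none lower, with a median of -0.18. Cds1, which turns phosphatidic acid into CDP-diacylglycerol for phosphoinositide synthesis, was at 8.60 and 8.96 in LKB1-SCKO nerve, against 7.85 and 7.79 in control nerve. It rose by a log2 fold change of 0.96 (SE 0.17, adjusted p = 0.0487), and it was called under 7 of 14 other settings, with adjusted p-values between 0.0480 and 0.192 when 1 pool was left out. Cds1 uses the product of Agpat2, the substrate that Lpin1 also uses. The 14 genes as a group had 5 members above 0 and 9 below, against 5 above and 1 below for the 6 glycerolipid genes described first, a difference that was not tested.

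Of 12 regulators of the SREBP and LXR pathways, 11 were measured and none was called. By the limma fit 1 of the 11 (9.09%) had an unadjusted p under 0.05, against 22.4% of all genes. The median log2 fold change was -0.12, and 9 of 11 were below 0. Insig1, which holds the SREBP escort protein in the endoplasmic reticulum and is itself induced by SREBP, was at 9.01 and 8.99 in LKB1-SCKO nerve, against 9.37 and 9.58 in control nerve. Its pools did not overlap, with a log2 fold change of -0.48 (SE 0.14, adjusted p = 0.140). Nr1h3, the oxysterol receptor LXR alpha, was at 8.90 and 9.53 in LKB1-SCKO nerve, against 9.69 and 9.44 in control nerve, with overlapping pools and a log2 fold change of -0.35 (adjusted p = 0.441).

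Of 21 other sphingolipid synthesis genes, 11 were measured and none was called. By the limma fit 4 of the 11 (36.4%) had an unadjusted p under 0.05, 3 of them higher, against 22.4% of all genes. The median of the 11 genes was -0.01, against -0.36 for the 10 synthesis genes among the 40. Degs2, a dihydroceramide hydroxylase and desaturase, was at 5.23 and 5.45 in LKB1-SCKO nerve, against 6.24 and 5.82 in control nerve, a log2 fold change of -0.69 (SE 0.19, adjusted p = 0.125). B4galnt1, a transferase of complex ganglioside synthesis, was at 8.44 and 7.98 in LKB1-SCKO nerve, against 7.56 and 7.75 in control nerve, a log2 fold change of 0.55 (SE 0.20, adjusted p = 0.194). In both genes the pools did not overlap.

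Of 20 other genes of sphingolipid breakdown, 15 were measured and none was called. By the limma fit 5 of the 15 (33.3%) had an unadjusted p under 0.05, all of them higher. Of all genes 22.4% passed that threshold, 12% of all genes being higher. The median log2 fold change was 0.25, and 11 of 15 were above 0. Gm2a, the activator protein for ganglioside hydrolysis in lysosomes, was at 13.09 and 13.03 in LKB1-SCKO nerve, against 12.50 and 12.52 in control nerve. The 2 genotypes were tightly separated, with a log2 fold change of 0.55 (SE 0.13, adjusted p = 0.0858). Sgpp1, a sphingosine phosphate phosphatase, was at 11.04 and 11.28 in LKB1-SCKO nerve, against 10.62 and 10.59 in control nerve, a log2 fold change of 0.55 (SE 0.15, adjusted p = 0.114).

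Macrophages are rich in lysosomal enzymes. Of 15 macrophage markers listed, 13 were measured and 4 were called, all higher, where 3.79% of all genes were called and 2.46% called higher. The 4 were Trem2, Cx3cr1, Mpeg1 and Laptm5, with log2 fold changes of 2.04, 1.87, 1.28 and 0.82. In 7 of the 13 markers (53.8%) the pools did not overlap, 6 higher and 1 lower, against 55.1% of all genes. The median over the 13 markers was 0.66, 10 above 0 and 3 below. The 3 below were Cd163 at -1.25, with pools that did not overlap, Mrc1 at -0.47 and Cd14 at -0.08, none of them called. Their mean log2 value was 9.77 and 9.46 in LKB1-SCKO nerve, against 8.78 and 9.30 in control nerve, and their summed intensity was 20720 and 17024 against 9699 and 14107. The number of called markers was between 1 and 3 when 1 pool was left out, Trem2 being called each time. The part of macrophages in the values of the breakdown genes was not tested. Of the 12 fibroblast and perineurium markers, all measured, 4 (33.3%) had an unadjusted p under 0.05 in the limma fit, against 22.4% of all genes. These 12 markers had a median of -0.12 with none called. Their largest differences were in Pdgfra, a receptor for platelet-derived growth factor, at -0.83, and in the keratin gene Krt19, at 0.80.

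**Figure D5:**
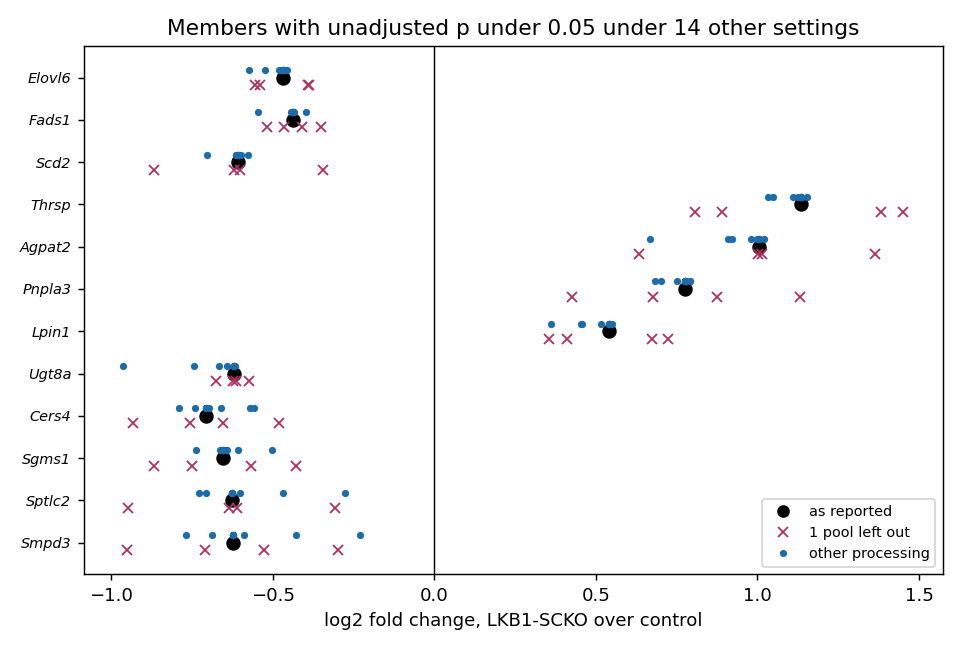
Log2 fold change, LKB1-SCKO over control (x axis), of the 12 members with an unadjusted p under 0.05, as reported (black) and under 14 other settings, of which 4 leave out 1 pool (crosses) and the others change the processing (blue dots). All 12 genes keep their sign under each setting. Crosses spread more widely than dots for Thrsp, Agpat2, Pnpla3 and Scd2.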

How the data were processed

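Illumina MouseWG-6 beadchips were hybridised with RNA of 4 pools of mouse sciatic nerve. The deposited table holds, per the file headers, a non-normalised linear signal intensity and a detection p-value for each of 45281 probes. The scanner software was GenomeStudio (2010), per the submitters' processing notes, while a genome build is not given in the sources used here. The authors' processed intensity values, deposited in a second table, were used as an alternative. Total RNA was extracted with Trizol, DNase-treated and amplified to biotinylated cRNA, per the labels' protocols.

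Of the probes, 34885 had 1 gene symbol on the platform annotation, 18 several and 10378 none, and 34807 were matched to RefSeq (GRCm38.p6) to update symbols. Intensities were background-corrected by normexp from the detection p-values (offset 16), log2-transformed and quantile-normalised with limma 3.58.1 in R 4.3.3. Probes detected (p under 0.05) on both arrays of either genotype were kept (19732), and the brightest probe stood for a gene. On each array 43.3% to 45.6% of probes were detected. No probe's level was set against another's. Genotypes were compared with lmFit and eBayes, two-sided, with Benjamini-Hochberg adjustment over 10858 genes at 0.05. The fit was tested on simulated data. The pools are of different mice, so their spread holds biological and technical variation.

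The members and gene lists were chosen with earlier results of these data known. The text names Stk11 and all 40 members, with pool values for those called and, per role, up to 4 by size of the fold change. From each further list it names called genes, up to 4, or else the 2 with the largest fold change. Scd1, Cers2 and Fa2h were given pool values outside this rule, after their values were seen. Cd163, Mrc1 and Cd14 were likewise named outside it. The replicate numbers of the labels are not said to pair pools.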

Additional observations from a re-analysis of the deposited data

How the results depend on the processing

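The comparison was repeated under 14 other settings. The number of genes called over the whole table, 412 as reported, was 636 without background correction and 172 with the replicate block. With 1 pool left out it was between 117 and 431: 217 without LKB1-SCKO 1, 431 without LKB1-SCKO 2, 154 without control 1 and 117 without control 2. The share of calls that were higher in LKB1-SCKO was 64.8% as reported, 76.7% with the replicate block, 79.9% without control 1 and 82.9% without control 2, but 54.8% with median scaling, 55.9% with the stricter detection filter and 56.1% without LKB1-SCKO 2. No pairing of pools is stated, the deviations of same-numbered pools correlated at -0.17 across genes, and with the replicate block 0 members were called (smallest adjusted p 0.0648). Of the 40 genes, 1 was called without background correction and 1 with an offset of 50, Ugt8a in both, and 0 under the other 12 settings, including each pool left out in turn (between 0 and 0). The cause was not tested. The sphingolipid synthesis median was -0.47 with median scaling and between -0.39 and -0.21 with 1 pool left out. The breakdown median was -0.073 with median scaling and between -0.034 and 0.063 with 1 pool left out. The fatty acid synthesis median was between 0.005 and 0.29 with 1 pool left out. Median scaling itself moved the median of all genes by -0.08. The genes named by rule are Stk11, the members given pool values by rule and those named by rule from further lists. Among them the sign turned for Srebf1 with median scaling (-0.0048) and Asah1 with the mean over probes (-0.074). With 1 pool left out it turned for Me1 (without control 1, range -0.84 to 2.97), Fasn (without LKB1-SCKO 1, range -0.046 to 0.60), Srebf1 (without LKB1-SCKO 1 at -0.041 and without control 2 at -0.021, range -0.041 to 0.19) and the muscle gene Atp2a1 (without LKB1-SCKO 1, range -2.17 to 0.10). Of all comparisons of these genes with their reported value, 553 kept direction and side of the threshold, 47 lost the call, 6 gained it and these 7 changed sign. None of the other members was called in any setting. Among them Elovl7, Dgat1, Sptlc1 and Psap kept their sign in 13 of 14 settings, Dgat2 and Ugcg in 12 and Smpd1 in 11. The reported estimates of these genes whose sign turned lay between -0.21 and 0.24. The lowest signal counted as detected was 5.16 to 5.26 on the log2 scale, and the dim probes of Degs2, Gpam and Smpd3 and the second probe of Ugt8a came near it in some pools.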
